A study of Homo sapiens with 24 samples.

Results

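The direct contrast of 2 adenosine analogs in the acute myeloid leukemia (AML) line KG-1a is described here: 4 RNA-seq libraries, of 24 in the series, from cells given 1 μM 8-amino-adenosine (8AA, replicates A and B) or 1 μM 8-chloro-adenosine (8CA, replicates A and B) for 24 h. The 4 members were chosen by their labels alone, and the untreated libraries stay out of the contrast itself. KG-1a is a CD34-positive, stem-like myeloid line, MV4-11 is a monocytic AML line, and both were labelled as wild type. Each line was also left untreated, and each group was sampled at 8 h and 24 h with replicates A and B, so the series has 12 groups. The untreated KG-1a libraries at 24 h give the level from which the analogs depart, and KG-1a at 8 h and MV4-11 at 24 h show where the contrast differs with time or line. Each line is a single cell population grown in culture, and the sources do not say whether A and B came from separate cultures. The p-values therefore measure only a spread between replicate libraries, pooled over the groups of a fit, which may be technical.

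8AA and 8CA share the adenosine skeleton and differ in the group at the 8 position of the base, an amino group in 8AA and a chlorine atom in 8CA. Both are phosphorylated inside the cell by adenosine kinase and act on RNA synthesis. Cells that lack amino acids or carry damaged protein phosphorylate the initiation factor eIF2, which slows translation while raising the transcription factor ATF4. ATF4 then turns on amino acid transporters, asparagine and serine synthesis and the tRNA synthetases that load amino acids, in leukemic as in other cells. MYC, another factor that AML cells depend on, drives ribosome assembly.

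Of 12711 genes with enough counts, 5336 (42.0%) were called at an adjusted p under 0.05 between 8AA and 8CA (edgeR quasi-likelihood test, Benjamini-Hochberg adjustment). With 8AA 2584 genes (20.3%) were higher and 2752 (21.7%) lower than with 8CA. A change of at least 1 on the log2 scale was reached by 431 called genes, 235 higher and 196 lower. The median over all genes was 0.00 and the SD 0.47 on that scale. Scaled by library size alone, in place of trimmed mean of M-values (TMM) factors, 3499 genes were called higher and 1999 lower, with the median over all genes at 0.07. The sets of 2 values did not overlap in 8393 genes (66.0%). Levels are CPM, counts scaled to the TMM-adjusted library size unless stated otherwise, and so relative levels: RNA per cell was not measured.

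**Figure D1:**
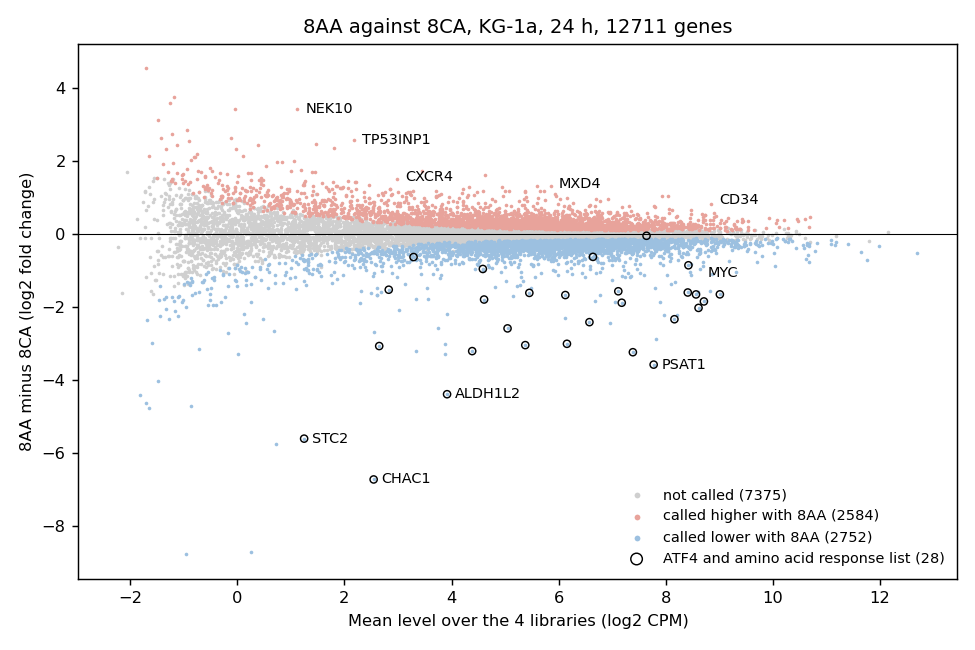
Each point is a gene, with its mean level over the 4 libraries on the x axis (log2 CPM) and its difference, 8AA minus 8CA, on the y axis (log2 fold change). Red and blue points were called higher or lower with 8AA, grey points were not called, and open circles mark the 28 tested genes of the ATF4 and amino acid response list, which reach from -0.04 down to -6.71 for CHAC1.

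The 4 libraries held 19071824 to 22888069 counts, and the analog libraries differed in how well their replicates matched. For the 8AA pair the chi-square per degree of freedom between replicates was 12.25, against 1.64 for the 8CA pair and 1.43 to 3.59 for the other KG-1a pairs. Of 6461 genes at a mean level of at least 5 log2 CPM, 53 differed by over 0.5 (log2) between the 8AA replicates and 0 between the 8CA replicates. The test pooled the spread of the 12 KG-1a libraries and so did not use that of the 8AA pair alone. With only the 4 libraries of the contrast in the fit, 3563 of 12535 genes were called, against 5336 of 12711. Against the labelled line, the 16 stem-like markers listed for KG-1a summed to 2218 to 3009 CPM of the unscaled library total in the 12 KG-1a libraries and 1029 to 1314 in the 12 MV4-11 libraries, and the 18 monocytic markers listed for MV4-11 to 121 to 132 and 4742 to 6108. Between the analogs 8 of 13 tested stem-like markers were called higher with 8AA and 0 lower (61.5% called, against 42.0% of all genes tested). Of 9 tested monocytic markers 3 were higher and 1 lower (44.4% called). The medians were 0.46 and 0.59 on the log2 scale, so a higher level was not particular to the stem-like list.

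Genes under ATF4 formed the most one-sided group of the contrast. Of 28 tested members of the ATF4 and amino acid response list, 27 were lower with 8AA than with 8CA and 0 were higher, with a median of -1.85 on the log2 scale, and 23 were lower by at least 2-fold. Against untreated cells, 27 members were higher and 1 lower with 8CA, while 2 were higher and 23 lower with 8AA. The single member that was not called, ALDH18A1, was picked out after its value of -0.04 was seen. The contrast thus sets 8CA cells above the untreated level against 8AA cells at or below it for most of the list.

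**Figure D2:**
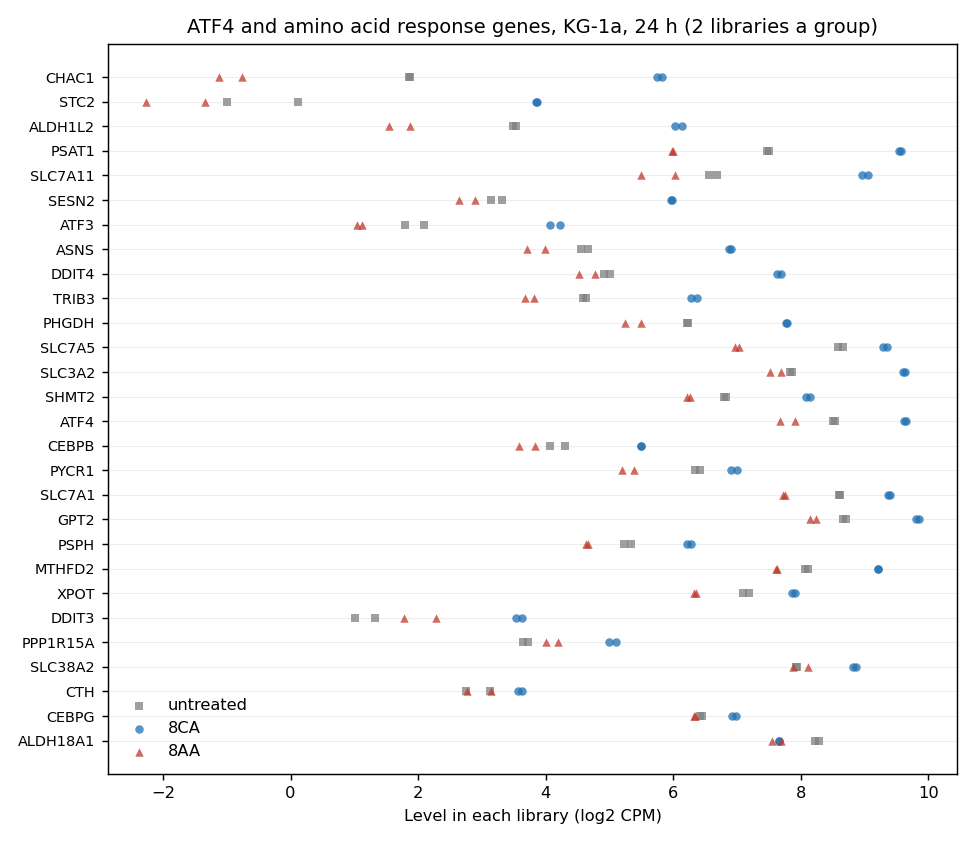
Levels of the 28 tested genes of the ATF4 and amino acid response list on the x axis (log2 CPM), 1 point for each library and 2 libraries a group, with genes on the y axis in order of the 8AA minus 8CA difference. The 8CA points lie to the right of the 8AA points in all genes but ALDH18A1, and in CHAC1 they are at 53.4 and 56.8 CPM against 0.459 and 0.591 CPM with 8AA.

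CHAC1, an ATF4 target whose product degrades glutathione, had the largest difference among the named genes (deposited position chr15:41245636-41248717, hg19). Its levels were 0.459 and 0.591 CPM in the 8AA libraries, 56.8 and 53.4 CPM in the 8CA libraries and 3.63 and 3.64 CPM in untreated cells. Both 8AA values lay below and both 8CA values above the untreated pair. The difference was -6.71 ± 0.13 (log2, SE; adjusted p = 3.8e-15), a level 105-fold higher with 8CA.

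PSAT1, an enzyme of serine synthesis, had the same order at a far higher count (chr9:80912059-80945009, hg19). It measured 63.2 and 64.0 CPM with 8AA, 746 and 760.0 CPM with 8CA and 180.4 and 178 CPM untreated. The replicates of each group nearly coincided, and the groups were far apart. The difference was -3.57 ± 0.05 (adjusted p = 5.1e-17). ALDH1L2, a mitochondrial folate enzyme, stood at 2.92 and 3.64 CPM with 8AA against 65.5 and 70.1 CPM with 8CA and 11.2 and 11.6 CPM untreated. Its difference was -4.38 ± 0.10 (adjusted p = 2.2e-14).

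SLC7A11, the cystine transporter, was further apart between the 8AA replicates than PSAT1 was. Its level was 45.1 and 65.4 CPM with 8AA, 499 and 529 CPM with 8CA and 103 and 94.9 CPM untreated. The 8AA replicates were apart by a margin that was small beside the distance to 8CA. The difference was -3.23 ± 0.12 (adjusted p = 6.6e-12). ASNS, asparagine synthetase, measured 15.9 and 13.1 CPM with 8AA, 120.3 and 118 CPM with 8CA and 23.5 and 25.2 CPM untreated. It differed by -3.03 ± 0.08 (adjusted p = 1.2e-13).

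Stress-signalling genes followed the same order. STC2, a secreted glycoprotein, was at 0.209 and 0.394 CPM with 8AA and at 14.5 CPM in both 8CA libraries (-5.59 ± 0.24, adjusted p = 4.9e-11). ATF3, a stress transcription factor, was at 2.17 and 2.07 CPM with 8AA and at 18.6 and 16.8 CPM with 8CA (-3.06 ± 0.15, adjusted p = 2.7e-10). Sestrin SESN2 and DDIT4, both inhibitors of mTORC1 signalling, differed by -3.20 ± 0.08 and -3.00 ± 0.07. ATF4 itself, which no rule named and which was chosen after its values were seen, was at 241 and 204 CPM with 8AA, 802 and 785 CPM with 8CA and 362 and 369.7 CPM untreated (-1.83 ± 0.06, adjusted p = 1.8e-12). Among the 12 genes with the largest fall were also VEGFA, the endothelial growth factor (-3.29 ± 0.10), MFAP4, an extracellular matrix protein (-3.20 ± 0.14), and ANK2, an ankyrin (-2.99 ± 0.09).

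Promoters are printed for 3 of these genes because their windows held TGATGNAA, the core of the amino acid response element to which ATF4 dimers bind, and for PTPN3, a phosphatase gene that was higher with 8AA and held the same letters. Windows run from 250 bases before to 50 after the start of the gene (RefSeq, GRCh38.p14), read 5′ to 3′ on the strand of the gene, with the match in capitals. ATF3 and ASNS have 2 windows each and PTPN3 has 4, of which the one with the letters is shown. N stands for any base, and in CHAC1 the match is on the opposite strand.
CHAC1, chr15:40953221-40953520, plus strand: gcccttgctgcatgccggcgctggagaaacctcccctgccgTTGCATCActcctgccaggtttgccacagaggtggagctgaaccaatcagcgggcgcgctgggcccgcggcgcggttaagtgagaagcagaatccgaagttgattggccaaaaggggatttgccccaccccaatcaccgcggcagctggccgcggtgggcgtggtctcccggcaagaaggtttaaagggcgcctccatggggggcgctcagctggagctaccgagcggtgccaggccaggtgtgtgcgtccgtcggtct
ATF3, chr1:212565157-212565456, plus strand: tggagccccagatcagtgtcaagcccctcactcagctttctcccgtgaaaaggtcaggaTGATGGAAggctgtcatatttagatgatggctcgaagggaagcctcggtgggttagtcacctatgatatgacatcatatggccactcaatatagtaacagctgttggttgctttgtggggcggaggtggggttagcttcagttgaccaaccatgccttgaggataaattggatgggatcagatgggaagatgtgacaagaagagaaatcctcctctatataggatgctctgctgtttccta
ASNS, chr7:97872359-97872658, minus strand: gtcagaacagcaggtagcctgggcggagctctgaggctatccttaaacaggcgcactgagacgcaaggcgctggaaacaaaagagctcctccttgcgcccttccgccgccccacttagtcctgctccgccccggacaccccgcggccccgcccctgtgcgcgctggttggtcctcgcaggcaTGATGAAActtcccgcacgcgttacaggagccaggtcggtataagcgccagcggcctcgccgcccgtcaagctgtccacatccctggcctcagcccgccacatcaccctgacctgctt
PTPN3, chr9:109417734-109418033, minus strand: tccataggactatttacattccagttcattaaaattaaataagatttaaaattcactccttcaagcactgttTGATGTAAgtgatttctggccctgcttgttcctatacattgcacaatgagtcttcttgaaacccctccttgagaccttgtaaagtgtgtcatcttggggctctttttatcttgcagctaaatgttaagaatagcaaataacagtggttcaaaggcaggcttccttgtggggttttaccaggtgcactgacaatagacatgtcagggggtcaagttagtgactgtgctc

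Windows were matched for 9597 of the 12711 tested genes, some with several starts. TGATGNAA on either strand was in 13.1% of 206 windows of genes that were lower with 8AA by at least 2-fold, against 1.95% of 256 windows of genes that were higher by at least 2-fold, 2.02% of 13967 windows of all tested genes and 3.62% of all 35116 windows. Over all called genes, whatever the size of the change, the letters were in 82 of 3092 windows of those lower (2.65%) and 61 of 3045 of those higher. Of 285 matches in windows of tested genes, 7 overlapped a match of another motif searched. Of the 12 genes with the largest fall, 8 had windows, and 4 of these 8 had a window with the letters (CHAC1, ATF3, ASNS and ANK2). CACGTG, the E-box that MYC and other factors bind, was in 13.5% of 3092 windows of genes called lower with 8AA, 7.29% of 3045 windows of genes called higher and 9.45% of those of all tested genes, and in 11.7% and 6.25% of the windows of those lower and higher by at least 2-fold. GAANNTTC (heat shock element), TGANTCA (AP-1), TGACNNNGC (antioxidant response element) and CCAAT were in 4.79%, 4.95%, 16.2% and 32.0% of windows of genes called lower and in 5.78%, 5.62%, 15.3% and 37.6% of those called higher, and among changes of at least 2-fold in 4.37%, 8.25%, 17.0% and 35.0% for lower genes and 9.38%, 7.81%, 17.2% and 30.9% for higher genes. These matches describe letters in a window and show no binding.

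The enzymes that load tRNAs with amino acids were lower with 8AA as a group. Of 20 cytosolic aminoacyl-tRNA synthetases, 17 were called lower and 0 higher, with a median of -1.12, and 11 were lower by at least 2-fold. WARS, the tryptophan enzyme, was at 88.8 and 79.0 CPM with 8AA, 615 and 607 CPM with 8CA and 136 CPM in both untreated libraries. Only 8CA set its level apart from untreated cells by more than 2-fold. The difference was -2.86 ± 0.05 (adjusted p = 3.8e-15). GARS, the glycine enzyme, was at 126 and 109 CPM with 8AA, 541 and 532 CPM with 8CA and 248 and 249 CPM untreated (-2.20 ± 0.06, adjusted p = 1.2e-13). The 3 enzymes not called, those for histidine, glutamine and arginine (HARS, QARS and RARS), were named after their values of -0.02, 0.11 and -0.06 were seen. The mitochondrial synthetases are separate genes, and 6 of 17 were lower and 2 higher (47.1% called, near the 42.0% of all genes tested).

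Serine and folate genes divided. Of 17 tested, 11 were lower, 3 higher and 7 lower by at least 2-fold. PSAT1 and ALDH1L2 lay at the low end, and GGH, a hydrolase that trims folate chains, chosen after its value was seen, was highest at 0.50. De novo purine and dNTP synthesis genes were lower in 16 of 28 and higher in 5. GART, which carries out several steps of purine ring synthesis, measured 174 and 169 CPM with 8AA against 268 and 258 CPM with 8CA (-0.62 ± 0.04, adjusted p = 2.4e-08), and its untreated level of 272 and 268 CPM was that of 8CA cells.

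Ribosome assembly genes were lower with 8AA almost throughout. Of 47 tested, 41 were called lower and 0 higher, with a median of -0.46, and DDX21 was the single one lower by at least 2-fold. DDX21, a nucleolar helicase, was at 244 and 246 CPM with 8AA, 505 and 497 CPM with 8CA and 562 and 553 CPM untreated. The 8CA level was close to the untreated one and the 8AA level well below both. The difference was -1.03 ± 0.04 (adjusted p = 2.6e-11). RRP12, a ribosome export factor, was at 29.4 and 25.4 CPM with 8AA and 50.2 and 52.7 CPM with 8CA (-0.90 ± 0.07, adjusted p = 5.7e-08). Against untreated cells 45 of the 47 genes were lower with 8AA and 38 lower with 8CA.

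Translation factors were lower in 27 of 45 and higher in 1. EIF4EBP1, which holds back cap-dependent translation and is an ATF4 target, led them with 59.5 and 48.5 CPM with 8AA against 302 and 279 CPM with 8CA and 119 and 125 CPM untreated (-2.42 ± 0.08, adjusted p = 9.1e-13). Transcripts that host small nucleolar RNAs were lower in 13 of 18 and higher in 1. GAS5, whose spliced RNA is degraded during translation, was at 189 and 174 CPM with 8AA, 311 and 318 CPM with 8CA and 177 and 175 CPM untreated (-0.79 ± 0.05, adjusted p = 3.8e-09). Its 8AA and untreated values overlapped, and the 8CA values were higher than both. Cytosolic ribosomal protein genes were lower in 38 of 80 and higher in 1 (48.8% called, near the 42.0% of all genes tested). That count rested on single libraries, and 12 were called lower with only the 4 libraries of the contrast in the fit.

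MYC was at 308 and 266 CPM with 8AA, 560.0 and 548 CPM with 8CA and 441 and 455 CPM untreated. The 8AA pair was below and the 8CA pair above the untreated pair. The difference was -0.95 ± 0.06 (adjusted p = 6.5e-09). MXD4, which competes with MYC for its partner MAX, ran the other way with 96.2 and 87.7 CPM with 8AA, 35.9 and 36.9 CPM with 8CA and 35.1 and 35.0 CPM untreated (1.34 ± 0.06, adjusted p = 7e-11). MYCN, the neuroblastoma homologue of MYC, was at 11.8 and 9.21 CPM with 8AA and 5.97 and 6.26 CPM with 8CA (0.79 ± 0.13, adjusted p = 0.00019). Of 11 tested genes of the MYC network, 5 were lower and 4 higher. Among immediate early genes 13 of 28 were lower and 4 higher, and DUSP6, a phosphatase that switches off ERK, was at 25.4 and 22.8 CPM with 8AA and 60.8 and 64.5 CPM with 8CA (-1.37 ± 0.07, adjusted p = 4.3e-10).

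The cysteine and methionine pathway, to which the study drew attention on these same samples and whose count is therefore not independent evidence of a direction, was lower with 8AA in 16 of 33 tested genes and higher in 4, with a median of -0.18. MAT2A, which makes S-adenosylmethionine (SAM) from methionine and ATP, was at 409 and 398 CPM with 8AA, 464 and 462 CPM with 8CA and 545 and 541 CPM untreated. The groups did not overlap, and the 8AA pair was the lowest of the 3. The difference between the analogs was -0.20 ± 0.04 (95% interval -0.28 to -0.11, adjusted p = 0.001). Against untreated cells MAT2A was at -0.43 with 8AA and -0.23 with 8CA. The lowest member was BCAT1, a branched-chain aminotransferase, at 116 and 156 CPM with 8AA and 363 and 381 CPM with 8CA (-1.45 ± 0.10, adjusted p = 2e-08). The highest were IL4I1, an amino acid oxidase (1.06 ± 0.23, adjusted p = 0.0016), at 2.05 and 1.87 CPM with 8AA against 0.980 and 0.894 CPM with 8CA, and AMD1, which turns SAM toward polyamines (0.28 ± 0.06, adjusted p = 0.0024).

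METTL16, the RNA methyltransferase that controls splicing of MAT2A, was at 67.5 and 60.8 CPM with 8AA, 86.3 and 87.1 CPM with 8CA and 77.1 and 82.1 CPM untreated. The 8AA pair lay below the other pairs. The difference was -0.43 ± 0.06 (adjusted p = 2.1e-05). Of 15 tested genes of SAM sensing and MAT2A splicing, 4 were lower and 1 higher (33.3% called, against 42.0% of all genes tested). The m6A writers METTL3 (0.07, 95% interval -0.05 to 0.18, adjusted p = 0.37) and METTL14 (0.13, interval -0.00 to 0.27, adjusted p = 0.11) were not called. The cleavage factors that act on the MAT2A retained intron were likewise not called, NUDT21 at -0.02 (interval -0.16 to 0.12, adjusted p = 0.83), CPSF6 at -0.02 (interval -0.15 to 0.12, adjusted p = 0.84) and CPSF7 at 0.03 (interval -0.05 to 0.12, adjusted p = 0.55). The 8AA replicates decided the sign in 3 of these genes: without replicate A METTL3 was at -0.02, NUDT21 at 0.09 and CPSF6 at 0.09, and without replicate B METTL3 was called at 0.14, NUDT21 at -0.14 and CPSF6 at -0.13. Without 8CA replicate B, NUDT21 was at 0.01 and CPSF6 at 0.03, both uncalled. The retained and spliced forms of MAT2A cannot be told apart in counts per gene.

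Genes that take up and convert adenosine were lower in 12 of 24 and higher in 6. ADA, adenosine deaminase, which removes the amino group of adenosine, was at 305 and 274 CPM with 8AA, 174 and 168 CPM with 8CA and 200.4 and 209 CPM untreated. The 8AA pair was the highest and the 8CA pair the lowest. The difference was 0.76 ± 0.05 (adjusted p = 1.9e-08). AMPD3, an AMP deaminase, was at 82.0 and 83.4 CPM with 8AA and 60.9 and 63.6 CPM with 8CA (0.41 ± 0.05, adjusted p = 2.2e-05). ADK, adenosine kinase, was at 47.5 and 50.4 CPM with 8AA, 54.9 and 60.8 CPM with 8CA and 72.1 and 71.7 CPM untreated (-0.24 ± 0.06, adjusted p = 0.0037), and it was not called without 8CA replicate B (-0.17, adjusted p = 0.081).

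Higher with 8AA than with 8CA were genes of mitosis, 30 of 44 with 0 lower, at a median of 0.23 and none by 2-fold. NUSAP1, a spindle protein, was at 326 and 327 CPM with 8AA, 215 and 217 CPM with 8CA and 218 CPM in both untreated libraries. The 8CA level was that of untreated cells. The difference was 0.60 ± 0.04 (adjusted p = 1.6e-08). CDC25C, the phosphatase that opens mitosis, was at 18.5 and 15.7 CPM with 8AA and 11.4 and 10.6 CPM with 8CA (0.64 ± 0.11, adjusted p = 0.00031). DNA replication genes were called higher in 11 of 44 and lower in 9, near the share over all genes.

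Cholesterol synthesis and uptake genes were higher with 8AA than with 8CA in 19 of 30 and lower in 3, with a median of 0.25. Against untreated cells most were lower with either analog: 19 lower and 3 higher with 8AA, 23 lower and 4 higher with 8CA. INSIG1, which holds back cholesterol synthesis, was at 126 and 129 CPM with 8AA, 73.0 and 72.7 CPM with 8CA and 157 and 152 CPM untreated (0.80 ± 0.05, adjusted p = 1.6e-08). Nuclear genes of the respiratory chain were higher in 25 of 71 and lower in 1 (36.6% called, against 42.0% of all genes tested). That count changed with single libraries left out. Against untreated cells 37 of the 71 were lower and 2 higher with 8AA, and 54 lower and 0 higher with 8CA.

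Genes of the unfolded protein response of the endoplasmic reticulum were higher in 11 of 25 and lower in 4. Most of them lay below untreated cells with either analog: 18 lower and 0 higher with 8AA, 15 lower and 3 higher with 8CA. HSPA5, the main chaperone of that compartment, was at 479 and 413 CPM with 8AA, 285 and 277 CPM with 8CA and 839 and 861 CPM untreated (0.67 ± 0.06, adjusted p = 3.1e-07). HERPUD1, which serves the breakdown of misfolded proteins, ran the other way at 45.1 and 41.4 CPM with 8AA, 86.2 and 87.9 CPM with 8CA and 61.1 and 59.7 CPM untreated (-1.01 ± 0.05, adjusted p = 1.1e-09). Heat shock chaperones under HSF1 were lower in 12 of 28 and higher in 4. Below untreated cells were 26 of these chaperones with 8AA and 25 with 8CA, with 0 above. Proteasome genes were lower in 6 of 38 and higher in 5 (28.9% called, against 42.0% of all genes tested), and 24 of the 38 had an interval within 1.2-fold in both directions.

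Of 24 leukemic surface and homing molecules, 11 were higher and 4 lower with 8AA. Myeloid and stem cell transcription factors were higher in 6 of 27 and lower in 4 (37% called, against 42.0% of all genes tested). Of 2 tested erythroid markers 0 were higher and 1 lower. CD34, the marker of stem-like blasts, was at 656 and 584 CPM with 8AA, 349 and 340 CPM with 8CA and 424 and 432 CPM untreated (0.85 ± 0.06, adjusted p = 1.2e-08). In bulk libraries fewer cells of a type and less RNA per cell cannot be told apart. CXCR4, the chemokine receptor that keeps blasts in marrow, was at 13.5 and 12.9 CPM with 8AA, 4.95 and 4.27 CPM with 8CA and 5.75 and 4.95 CPM untreated (1.52 ± 0.12, adjusted p = 1.2e-07). CD3E, a T cell receptor subunit, was at 81.7 and 69.8 CPM with 8AA against 32.4 and 33.7 CPM with 8CA, a level 2.30-fold higher with 8AA (adjusted p = 4.1e-08). Of the lymphoid list 3 of 11 tested markers were higher and 0 lower (27.3% called, against 42.0% of all genes tested). That list summed to 639 and 548 CPM with 8AA, 479 and 459.9 CPM with 8CA and 536 and 561 CPM untreated, the B cell marker MS4A1 had 0 counts in each of these libraries, and the part of such markers in the result was not tested.

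The 12 genes with the largest rise had mean levels over the 4 libraries from 1.07 to 4.62 log2 CPM, against a median of 5.04 over all genes tested, and the 8AA mean of each lay above those of 8CA and untreated cells. NEK10, a kinase of the NIMA family, was at 6.97 and 6.65 CPM with 8AA, 0.373 and 0.894 CPM with 8CA and 1.76 and 2.07 CPM untreated (3.43 ± 0.25, adjusted p = 3.2e-08). TP53INP1, a p53 target that promotes autophagy and cell death, was at 10.1 and 11.6 CPM with 8AA, 1.73 and 1.84 CPM with 8CA and 1.82 and 1.69 CPM untreated (2.59 ± 0.20, adjusted p = 6e-08). PTPN3, a tyrosine phosphatase, was at 5.93 and 6.75 CPM with 8AA and 0.840 and 1.44 CPM with 8CA (2.47 ± 0.20, adjusted p = 1.6e-07).

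The groups of these 3 genes did not overlap, as in 66.0% of all genes tested. The 3 were picked for large differences between the same libraries, so this adds no support. The other 8 of the 12, CXCR4 aside, were the teneurin TENM1 (2.36 on the log2 scale), C2orf66 (4.01-fold, the rest again as log2), the interleukin-17 receptor subunit IL17RC (1.77), SAMSN1-AS1 (1.73), the T cell co-receptor CD28 (1.72), the adhesion molecule SDK1 (1.72) and the pseudogene CCDC162P (1.64) and the SET-binding gene SETBP1 (1.46). SAMSN1-AS1 is an antisense transcript, and since the strand setting is not given in the sources used here its reads cannot be told from those of overlapping genes.

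Genes of cell death did not move as a group. The p53 targets were higher in 8 of 22 and lower in 8, the higher count falling to 5 without 8CA replicate A. PMAIP1, which encodes the BH3-only protein NOXA, was at 24.8 and 27.4 CPM with 8AA, 60.1 and 57.8 CPM with 8CA and 35.9 and 35.6 CPM untreated (-1.18 ± 0.07, adjusted p = 6.1e-09). BCL2, the target of venetoclax, was at 317 and 341 CPM with 8AA and 339 and 331 CPM with 8CA. The pairs overlapped, and the difference was -0.02 (95% interval -0.12 to 0.07, adjusted p = 0.7), or 0.03 without 8AA replicate A. TNFAIP3, a brake on NF-kappaB, was at 87.6 and 90.5 CPM with 8AA, 40.0 and 42.5 CPM with 8CA and 26.4 and 28.2 CPM untreated (1.11 ± 0.07, adjusted p = 2.8e-09). Interferon-stimulated genes were higher in 15 of 40 and lower in 9, with 9 higher without 8CA replicate A.

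**Figure D3:**
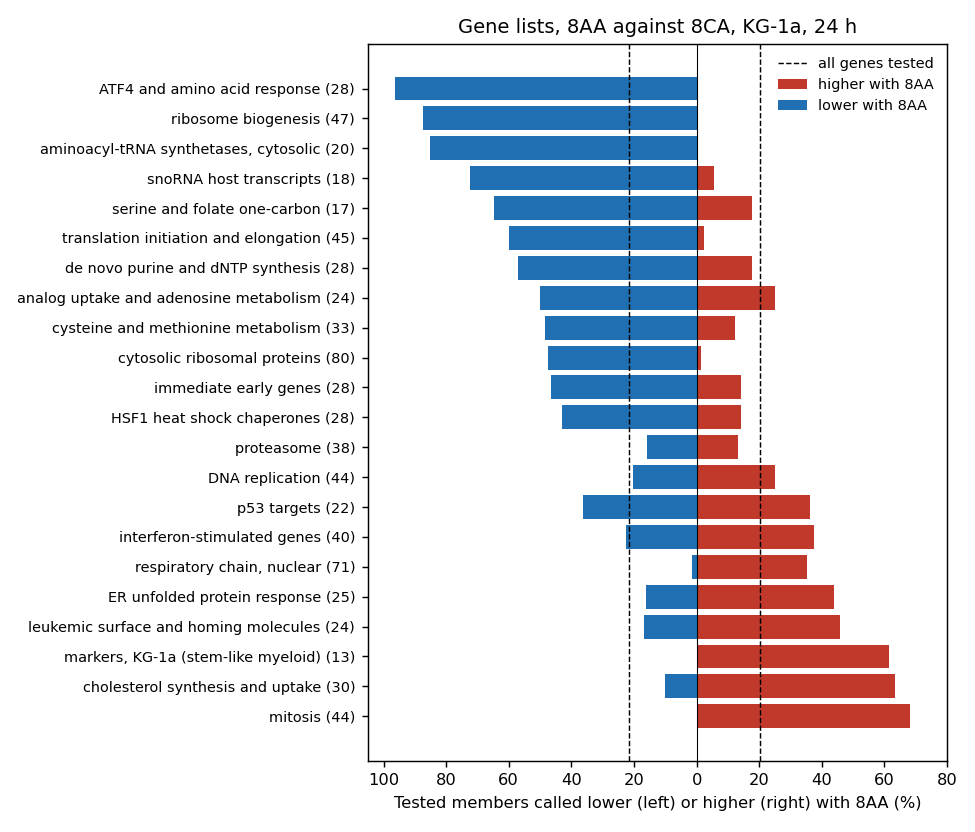
Share of tested members (number in brackets) of 22 gene lists called lower (left, blue) or higher (right, red) with 8AA than with 8CA, in percent. Dashed lines mark the share over all genes tested, 21.7% lower and 20.3% higher, and the ATF4, ribosome biogenesis and tRNA synthetase bars reach furthest left, those of mitosis and cholesterol furthest right.

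For 3283 genes the 95% interval of the difference lay within 1.2-fold in both directions. These intervals rest on the spread pooled over the 12 KG-1a libraries. The 8AA pair was further apart (chi-square per degree of freedom 12.25, against 1.43 to 3.59 for the other pairs), so they may be too narrow. With only the 4 libraries of the contrast in the fit, 2022 genes were bounded. Of the 7375 genes not called, 3071 were bounded in this way, and for the other 4304 the interval reached past 1.2-fold. The bounded count was 2176 without 8CA replicate A. METTL3, NUDT21, CPSF6, CPSF7 and BCL2 were among the bounded genes, METTL14 and ADK not.

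Exon length moved with the contrast and with 1 library pair. The share called lower rose from 10.1% of genes under 1 kb to 33.8% of those of 10 kb or more, and the median difference went from 0.07 to -0.09. Between the 8AA replicates (A minus B) the median went from 0.13 to -0.16 over the same lengths, and between the 8CA replicates from 0.02 to -0.02. Without 8AA replicate A the medians of the contrast were 0.01 at both ends, and without replicate B 0.12 and -0.21. The share called lower also rose with mean level, from 6.6% of genes below 1 log2 CPM to 35.4% of those at 7 or more. The share called higher was 12.2% and 20.3% at those levels. The part of either trend in any gene list was not tested. On the ATF4 list 27 genes were called lower with each of the 4 libraries left out in turn, with counts of 16 to 17 for tRNA synthetases, 40 to 44 for ribosome assembly genes and 25 to 32 for mitosis genes.

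**Figure D4:**
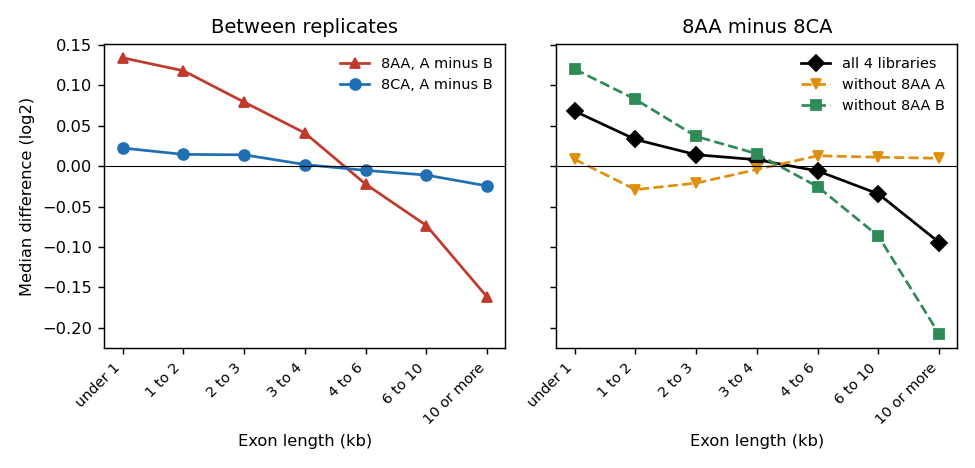
Median log2 difference of genes in 7 bins of exon length (kb). On the left are the differences between replicates A and B of 8AA (red) and 8CA (blue), on the right 8AA minus 8CA with all 4 libraries (black), without 8AA replicate A (orange) and without 8AA replicate B (green), which runs from 0.12 to -0.21.

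At 8 h the same contrast in KG-1a called 3868 genes (30.4%), 1865 higher and 2003 lower, with 150 by at least 2-fold. It shares no library with the 24 h contrast, but both were tested with the spread pooled over the 12 KG-1a libraries. That spread includes the 8AA pair at 24 h, whose chi-square per degree of freedom was 12.25. The 8AA and 8CA pairs at 8 h were at 2.07 and 1.43. The numbers called at the 2 times, and the shares in common, therefore do not measure how far the contrast grew. Called in the same direction at both times were 2548 genes, 47.8% of the 24 h and 65.9% of the 8 h list, and 84 were called in opposite directions. Over 12711 genes Pearson's r between the differences was 0.56, with genes not being independent. The difference between the times was itself called in 1107 genes (8.71%), between 573 and 2438 when 1 of the 4 libraries of the 24 h contrast was left out: 2334 and 2438 without 8AA replicates A and B, 573 and 579 without 8CA replicates A and B.

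The ATF4 list was already lower at 8 h in 25 of 28 genes, at a median of -0.87, and 25 of the 28 differed between the times. CHAC1 was at -5.92 at 8 h and -6.71 at 24 h and did not pass the test of that difference (-0.79, adjusted p = 0.23), whereas WARS went from -0.34 to -2.86, a difference of -2.53. Ribosome assembly genes had a median of -0.43 at 8 h, near that at 24 h, and 5 of 47 differed between the times. Mitosis genes were higher in 3 and lower in 6 of 44 at 8 h, with 16 differing between the times. Cholesterol genes were lower in 11 of 30 and higher in 2 at 8 h, and 18 differed between the times, INSIG1 going from -0.22 to 0.80. HSF1 chaperones were lower in 24 of 28 at 8 h.

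In MV4-11 at 24 h 2716 of 12800 genes (21.2%) were called, 1503 higher and 1213 lower with 8AA, and 144 by at least 2-fold. Called in the same direction in both lines were 1211 genes, 24.8% of the KG-1a and 49.4% of the MV4-11 calls among the 11485 genes tested in both, and 198 were called in opposite directions (r = 0.34 across genes). The difference between the lines was called in 2554 of 14055 genes (18.2%). The ATF4 list was lower in 24 of 28 and higher in 1 in MV4-11, at a median of -0.80, and 25 differed between the lines. Ribosome assembly genes separated the lines further, with 10 of 47 lower in MV4-11 at a median of -0.04 and 38 differing between the lines. Cholesterol genes were higher in 25 of 30 in MV4-11, at a median of 0.49.

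**Figure D5:**
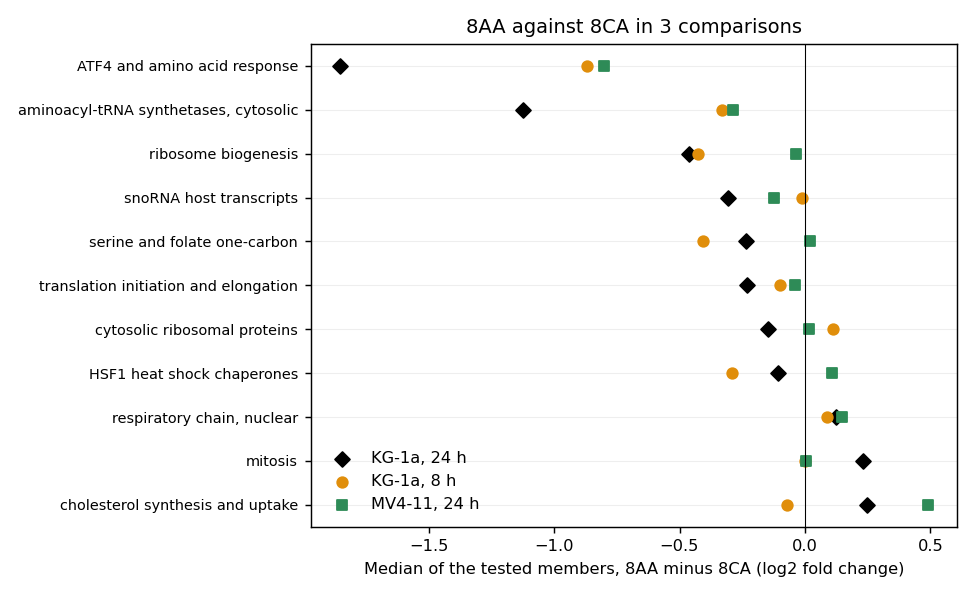
Median 8AA minus 8CA difference (log2 fold change, x axis) of the tested members of 11 gene lists (y axis) in KG-1a at 24 h (black diamonds), KG-1a at 8 h (orange circles) and MV4-11 at 24 h (green squares). The ATF4 list is lowest in all 3 comparisons (-1.85, -0.87 and -0.80), and the cholesterol list is at -0.07 at 8 h and 0.49 in MV4-11.

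In all 3 comparisons 247 genes were called higher and 341 lower with 8AA than with 8CA. The 5 higher genes whose smallest difference was largest were PTPN3 (2.47 in KG-1a at 24 h, 1.11 at 8 h, 1.17 in MV4-11), MAP1A, a microtubule protein (1.04, 1.04 and 1.51), MAP2K6, a kinase of the p38 cascade (1.10, 1.01 and 1.39), SDK1 (1.72, 1.10 and 0.89) and the sestrin SESN3 (0.94, 0.85 and 0.76). The 5 lower genes were CHAC1 (-6.71, -5.92 and -2.34), SLC7A11 (-3.23, -1.71 and -2.49), ALDH1L2 (-4.38, -1.67 and -1.71), ATF3 (-3.06, -2.38 and -1.60) and PSAT1 (-3.57, -1.20 and -1.27). Among genes called in opposite directions in the lines, the largest differences between lines were those of CTSG, the neutrophil protease cathepsin G (-1.87 in KG-1a, 0.61 in MV4-11), RIMS3, a synaptic scaffold gene (-1.46 and 0.59), BHLHE40, a circadian and stress repressor (-0.95 and 0.90), LZTS1, a leucine zipper protein (-1.37 and 0.42), and FAM86EP, a pseudogene of a multigene family whose reads may be split with its copies (-0.93 and 0.39).

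Against untreated KG-1a cells at 24 h, 6600 genes (51.9%) were called with 8AA and 6021 (47.4%) with 8CA. Both comparisons use the same untreated libraries, and each also shares libraries with the direct contrast, so their values are given side by side only. For CHAC1 they were -2.79 with 8AA and 3.92 with 8CA, for ASNS -0.74 and 2.29, for MYC -0.64 and 0.31, for MXD4 1.39 and 0.05 and for NUSAP1 0.58 and -0.01. CHAC1, ASNS and MYC were thus called in opposite directions by the analogs, while MXD4 and NUSAP1 were called with 8AA and not with 8CA.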

How the data were processed

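RNA from KG-1a and MV4-11 cells was sequenced and reads were counted per gene by the authors, and the deposited table holds raw counts for 23354 genes in 24 libraries. The submitters' processing notes name Trimmomatic, STAR 2.6.0, HTSeq 0.11.1, edgeR and the builds hg19 and hg38, without roles. Gene positions in the table follow hg19. The sources used here name neither the annotation release nor the strand setting. The 12 KG-1a libraries were fitted together with edgeR 4.0.16 (R 4.3.3), with genes kept by filterByExpr at a minimum count of 10, TMM scaling, 1 coefficient for each group and the quasi-likelihood test, called at a Benjamini-Hochberg adjusted p under 0.05. MV4-11 was fitted alone, and both lines together (14055 genes) for the difference between lines. CPM use TMM-scaled library sizes. The fit was tested on simulated data. Alternatives included DESeq2 1.42.0, limma 3.58.1, other scalings, filters and sets of libraries, and leaving out each library.

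The contrast, the gene lists and the rule for named genes were chosen with earlier results of these data known. The rule takes the 12 largest changes in each direction at a mean of at least 1 log2 CPM and called with any library left out, genes of the MAT2A splicing question, the 2 extreme members of each list in each direction, and the genes that agree or oppose most across lines; a gene it also names is not reported here. Promoters are from RefSeq (GRCh38.p14).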

Additional observations from a re-analysis of the deposited data

Results flagged for a closer look

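The 8AA minus 8CA difference was itself tested between times and between lines (interaction terms of edgeR's quasi-likelihood fits, Benjamini-Hochberg adjustment over all genes). It was called in 1107 genes for 24 h minus 8 h in KG-1a and in 2554 genes for KG-1a minus MV4-11 at 24 h. Of the 67 genes followed here, 41 passed the first test and 43 the second, against 8.71% and 18.2% of all genes tested. Many of the 67 were named for large differences in KG-1a at 24 h, which is a term of both tests. Their counts and values are therefore a description and add no support. Each value below is a difference of log2 differences, and a negative one means that 8AA lay further below 8CA, or less far above it, in KG-1a at 24 h.

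Genes of the ATF4 and amino acid response were set apart by 1 or both of these tests, and only called values are given. Between the times the values were -2.35 for STC2, -2.71 for ALDH1L2, -2.36 for PSAT1, -1.52 for SLC7A11, -1.18 for SESN2, -2.27 for ASNS, -1.55 for DDIT4 and -0.41 for ATF4. Between the lines they were -4.37 for CHAC1, -2.67 for ALDH1L2, -2.29 for PSAT1, -0.74 for SLC7A11, -2.19 for SESN2, -1.45 for ATF3, -1.65 for ASNS, -2.53 for DDIT4 and -0.92 for ATF4. Of the other genes with a large fall, VEGFA (-0.91 by time, -2.55 by line) and ANK2 (-2.27 and -2.21) were called by both. MFAP4 was at -2.96 by time and was not called by line (adjusted p = 0.19), with too few counts in MV4-11 for the test within that line. Among genes of translation, WARS was at -2.53 and -2.29, GARS at -1.11 and -1.46, EIF4EBP1 at -1.94 and -2.24 and GAS5 at -0.69 and -0.56 by time and by line.

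Ribosome assembly genes and MYC had larger values by line than by time: DDX21 was at -0.24 by time and -0.85 by line, RRP12 at -0.84, MYC at -0.70 and MXD4 at 1.16 by line. DUSP6 was at 0.72 by time and -1.25 by line, and GART at -0.34 and -0.59. Among genes of methionine and adenosine handling, by time BCAT1 was at -1.04, IL4I1 at 1.52, AMD1 at 0.35, METTL16 at -0.33 and ADA at 0.40. By line BCAT1 was at -0.73, MAT2A at -0.26, METTL16 at -0.34, METTL14 at 0.34, ADK at -0.40 and ADA at 0.52.

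Several genes higher with 8AA gained on 8CA from 8 h to 24 h. By time NEK10 was at 2.82, PTPN3 at 1.37, C2orf66 at 2.04, SAMSN1-AS1 at 0.98, CCDC162P at 0.88, CXCR4 at 0.95, SETBP1 at 1.43, NUSAP1 at 0.36, INSIG1 at 1.02, HSPA5 at 0.57, CD34 at 0.47, TNFAIP3 at 0.52 and CD3E at 0.82. By line NEK10 was at 5.37, with too few counts in MV4-11 for the test within that line. CD28 was at 4.65, a value that rests on very low MV4-11 levels, 0.088 and 0.047 CPM with 8AA and 0.52 and 0.60 CPM with 8CA. TP53INP1 was at 2.87 by line, PTPN3 at 1.30, SDK1 at 0.83, CXCR4 at 1.29, NUSAP1 at 0.53, CDC25C at 0.65 and TNFAIP3 at 1.25. HERPUD1 was at -0.36 by time and -0.60 by line, PMAIP1 at -0.80 by line and BCL2 at 0.21 by time.

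The genes called in opposite directions in the lines were chosen for that contrast, so their values are a description. CTSG was at -1.98 by time and -2.48 by line, RIMS3 at -1.56 and -2.05, LZTS1 at -1.30 and -1.79, BHLHE40 at -1.85 by line and FAM86EP at -1.32 by line.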

How the results depend on the processing

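For 8AA against 8CA in KG-1a at 24 h, the counts over all genes and lists and each of the 67 named genes were recomputed under 15 alternatives. Bounded genes, the 8 h calls and the differences between times and between lines were recomputed under 6, and MV4-11 and both comparisons with untreated cells under 2 (library size only and the replicate block). Of 1000 gene values, 980 kept their direction and their side of the threshold. The number of genes called stayed between 3563 (4 libraries in the fit) and 5961, with 4160 by DESeq2 and 3958 by limma with quality weights. Of these, the genes called lower fell to 1761 with 4 libraries in the fit, and the genes called with a log2 change of at least 1 to 250 when each library had to hold 10 counts. The split turned with the scaling, from 2584 higher and 2752 lower to 3069 and 2329 by upper quartile and 3499 and 1999 by library size only, with the median of all genes at 0.04 and 0.07. Leaving out 1 library gave 573 to 2438 calls for the difference between times (573 and 579 without 8CA replicate A or B, 2334 and 2438 without 8AA replicate A or B), 2176 to 3209 bounded genes (2022 with 4 libraries in the fit), 20 to 73 ribosomal protein genes lower, 15 to 43 respiratory chain genes higher, 9 to 16 interferon-stimulated genes higher and 5 to 8 p53 targets higher. With 1 sample left in a group, that sample is assumed to vary like the other groups. Ribosomal protein genes called lower numbered 24 by library size only and 12 with 4 libraries in the fit, respiratory chain genes called higher 41 and 15, SAM sensing genes called lower 2 with 4 libraries, immediate early genes called lower 8 by limma, and p53 targets called higher 5 by both DESeq2 and limma. Direction turned in genes that were not called. By library size only and by upper quartile NUDT21 was at 0.048 and 0.015, CPSF6 at 0.050 and 0.018 and BCL2 at 0.044 and 0.012. With 1 library left out METTL3 ran from -0.021 to 0.14, NUDT21 from -0.14 to 0.093, CPSF6 from -0.13 to 0.088 and BCL2 from -0.077 to 0.026. METTL14 was called at 0.20 by library size only and 0.17 by upper quartile, CPSF7 at 0.10 by library size only, and ADK was not called with 4 libraries in the fit (-0.23). The causes were not tested.

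The replicate block gave 5671 calls (2733 higher, 2938 lower), 1395 between times and 2469 between lines. It moved no count by over 1.5 times and no named gene across the threshold. The letters pair no samples by the labels, and the A minus B deviations of the 8AA and 8CA groups correlated at 0.06. Depth limits the lower end: 1670 of 12711 genes had a 95% interval wider than 1 on the log2 scale.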
